A study of Mus musculus with 2 samples.

Results

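Primary microRNA loci are the genes whose transcripts fold into microRNA hairpins, and those detected in hippocampal total RNA are described here. The annotation used for the deposited tables holds 2202 genes of type miRNA. Members were selected on measured values: a miRNA gene was included where its mean TPM (transcript abundance corrected for length and scaled to a fixed sum) over both libraries was 1 or more. This chose 58 genes, 2.63% of the 2202 and 7.2% of the 806 that are longer than 100 bases. Their TPM is therefore a description, with no test. The RNA came from 2 adult males of B6CASTF1/J, a first-generation hybrid of the strains C57BL/6J and CAST/EiJ, aged 8 to 10 months, with no treatment named in the labels. Each animal gave 1 strand-keeping library from 300 ng of hippocampal RNA after reduction of ribosomal RNA, with ERCC spike-ins (synthetic control RNAs) added. Both libraries form 1 group, so the data hold levels and the spread between 2 animals, and no comparison of conditions. Animal, dissection and library preparation cannot be told apart, because each animal gave 1 library. Values given as mean ± SD are over n = 2.

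A microRNA gene is transcribed as a long primary transcript that contains 1 or more hairpins. The nuclear enzyme Drosha with its partner Dgcr8 cuts out the hairpin, Exportin-5 (Xpo5) carries it to the cytoplasm, and Dicer1 trims it to the mature microRNA, which an Argonaute protein uses to recognise messenger RNAs through the seed near its 5′ end. Many hairpins lie in introns or exons of longer host genes and are transcribed with them. Neurons are known for high levels of several mature microRNAs, such as miR-124 and miR-9. The values below are not mature microRNA levels: they are reads of total RNA placed on features of the length of a precursor hairpin.

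RefSeq (build GRCm38.p6) held an entry for 25 of the 58 members by symbol, and a mature sequence for 24. The 31 mature sequences of these 24 had 31 distinct seeds, so no 2 of them shared one. The following are shown because they belong to the member with the highest counts, to the 3 members of the imprinted Dlk1-Dio3 region, and to 3 members with a known relative or host. Capitals mark the seed, bases 2 to 8 from the 5′ end.
mmu-miR-703: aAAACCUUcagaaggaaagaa
mmu-miR-1188-5p: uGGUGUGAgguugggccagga
mmu-miR-1188-3p: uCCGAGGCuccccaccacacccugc
mmu-miR-433-5p: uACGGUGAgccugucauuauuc
mmu-miR-433-3p: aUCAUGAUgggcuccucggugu
mmu-miR-1197-5p: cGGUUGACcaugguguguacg
mmu-miR-1197-3p: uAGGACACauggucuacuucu
mmu-let-7j: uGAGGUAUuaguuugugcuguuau
mmu-miR-3552: aGGCUGCAggcccacuucccu
mmu-miR-1271-5p: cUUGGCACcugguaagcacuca
Among all RefSeq mouse mature sequences, the seed of miR-1197-5p also stood in miR-758-5p, that of let-7j in miR-202-3p and that of miR-1271-5p in miR-96-5p. The seeds of the other 7 were found in no second mature sequence.

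The length of a hairpin decided whether it could be measured. In both libraries the deposited effective length, the number of positions at which a read could start, was the annotated length less 100 bases. It was 0 for the 1396 miRNA genes (63.4%) of 100 bases or less, and all 1396 had 0 counts in both libraries. Of the 806 longer genes, 81 (10%) had any expected count (reads assigned to the gene, with shared reads divided among genes). The members were 101 to 164 bases long, with a median of 124. Because the effective length is so small, 1 count gave 70.9 TPM divided by the effective length in replicate 1 and 52.6 in replicate 2. A single count was enough for a mean TPM of 1 at lengths up to 135 bases in replicate 1 and up to 126 bases in replicate 2.

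The counts behind the 58 members were few. All miRNA genes together held 177.16 expected counts in replicate 1 and 165.66 in replicate 2, out of 23408838 and 29512441 on annotated genes. These were 7.57 counts for every 1000000 (95% Wilson interval 6.53 to 8.76) and 5.61 (4.83 to 6.55). A count of 0 allows up to 3 counts, which is 0.128 and 0.102 on the same scale, and all such limits and intervals cover counting error only, since reads were not tagged by molecule and may repeat one. The members held 172.17 and 157.98 of these counts and summed to 1023 and 740 TPM. Of the 58, 42 had a count in replicate 1, 33 in replicate 2 and 17 in both, so 41 rested on 1 library alone. Exactly 1 count in all stood behind 25 members, and 2 counts or fewer behind 39. Only 5 members had 10 or more counts over both libraries, and only Mir703 had 10 or more in each.

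**Figure D1:**
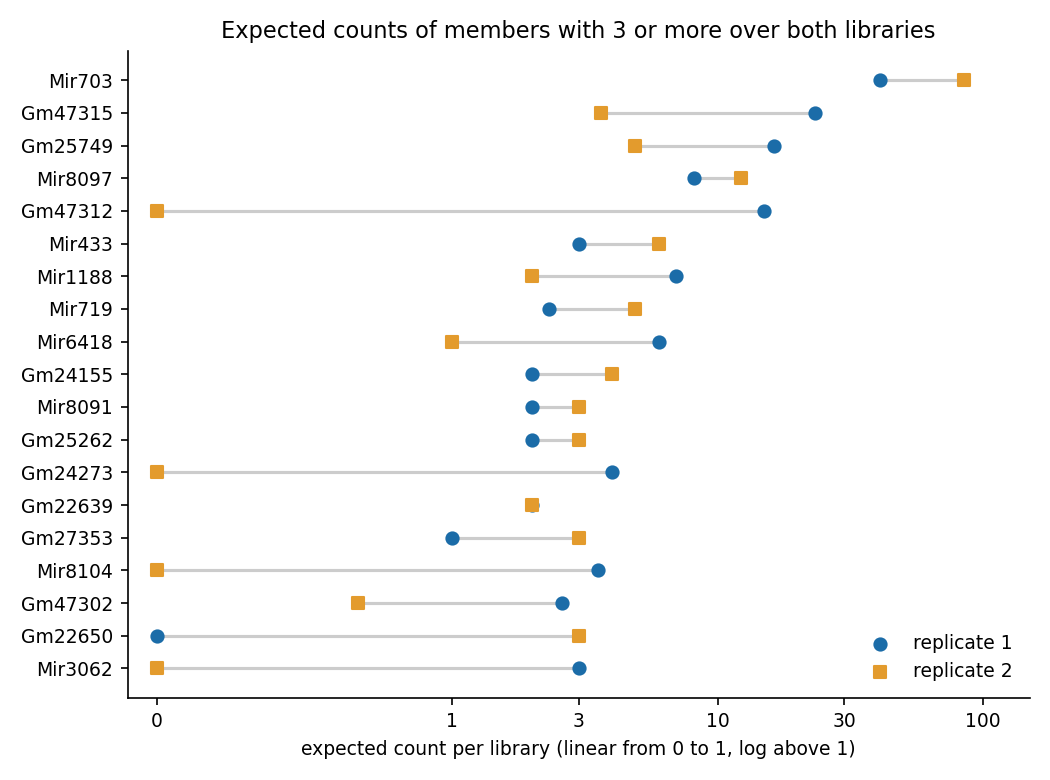
Expected counts (x axis, linear from 0 to 1 and log above 1) of the members with 3 counts or more over both libraries, 1 row per gene, with a circle for replicate 1 and a square for replicate 2. Mir703 stands at 41 and 85 counts, while most other genes have fewer than 10 counts in each library and 5 of those shown are at 0 in 1 library.

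**Figure D2:**
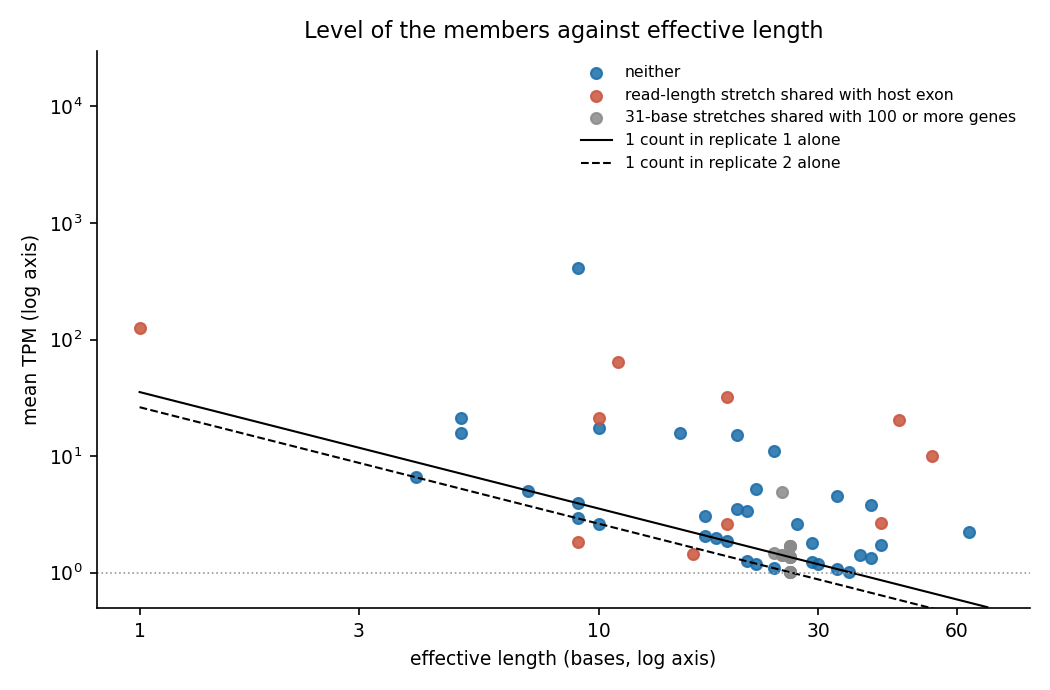
Mean TPM over both libraries (y axis, log) against effective length in bases (x axis, log) for the 58 members, coloured by how their sequence is shared with other genes, with the dotted line at 1 TPM. The 2 black lines give the mean TPM that 1 count in replicate 1 (solid) or replicate 2 (dashed) produces, and many members lie on them.

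Mir703 was the highest member, with 41 counts and 323.05 TPM in replicate 1 and 85 counts and 496.53 TPM in replicate 2 (409.79 ± 122.67 TPM, SD). It held 38.2% of all members' counts. Per total count on annotated genes, replicate 2 was 1.64 times replicate 1 (95% Clopper-Pearson interval 1.12 to 2.45). Mir703 (ENSMUSG00000105814.1, mm10 chr5:98475556-98475664, minus strand) is 109 bases long and lies antisense in an intron of Cfap299, a cilia-associated gene that was at 0.19 and 0 TPM. The whole Mir703 sequence aligned to positions 1608 to 1715 of a 1794-base transcript of Eef1a1, the elongation factor that brings aminoacyl-tRNA to the ribosome, with 107 of 108 aligned bases identical and 1 gap. None of its 9 stretches of 101 bases, the shortest that a read position needs here, occurred exactly in another gene, and its longest run identical to Eef1a1 was 47 bases. Eef1a1 stood at 27758.25 and 39679.53 counts (1231.5 and 1321.57 TPM), so Mir703 had 14.8 and 21.4 counts for every 10000 of Eef1a1. Whether reads of Eef1a1 were placed on Mir703 was not tested. The intervals do not cover that kind of error.

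The other 57 members together held 131.17 counts in replicate 1 and 72.98 in replicate 2. They are described below by how their sequence relates to other genes: 10 share a stretch of 101 bases with an exon of the gene they lie in, 14 have 31-base stretches that also occur in 100 or more other genes, and 33 (34 with Mir703) do neither.

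The 10 members inside a host exon held 73.17 counts in replicate 1 and 26.99 in replicate 2. In each of them, every read-length stretch or most of them was also part of a transcript of the host gene. None of the 10 had whole-number counts in both libraries (whole meaning within 0.005). Their counts are thus estimates of how reads were divided between the hairpin and its host. Gm25749, in a coding exon of the AMPA glutamate receptor subunit Gria2 (chr3:80692203-80692313, minus strand), had 16.31 and 4.9 counts, or 105.13 and 23.4 TPM, while Gria2 itself was at 351.09 and 273.91 TPM. Gm47315, in an exon of Kansl1, a subunit of a histone acetyltransferase complex, had 23.23 and 3.63 counts (36.6 and 4.25 TPM), and Kansl1 was at 39.24 and 32.95 TPM. Gm47312, in a coding exon of Fam155a, an auxiliary subunit of a sodium leak channel, had 14.92 and 0 counts (19.97 and 0 TPM), and Fam155a was at 58.35 and 53.29 TPM. All 3 members were 2-fold or more lower in replicate 2, as were 5.1% of all 15760 genes compared, while their hosts stood closer together.

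Mir8097 lies in the 3′ UTR of Rnf19a, a ubiquitin ligase, and had 8.17 and 12.27 counts, or 30.51 and 33.95 TPM (32.23 ± 2.43, SD). The ratio of replicate 2 to replicate 1 was 1.19, with an interval of 0.447 to 3.36. Mir719, in a coding exon of Gm49336, had 2.32 and 4.88 counts (16.48 and 25.67 TPM). Mir8104 shows how far TPM and counts part in so short a feature. It is 101 bases long, offers 1 read position, and ranked second by mean TPM from 3.56 counts in replicate 1 (252.34 TPM) and 0 in replicate 2. That single position is also in a coding exon of the phosphatase gene Ppm1h, which stood at 37.58 and 33.03 TPM. A count of 0 in replicate 2 allows up to 157.71 TPM for Mir8104. By that floor it was 1.5-fold lower there per total count, while the interval of the ratio, 0 to 1.2, includes equal levels. The other 4 members of the class were Gm47302 (in the collagen gene Col3a1, 2.6 and 0.68 counts), Mir8115 (in the purinergic receptor gene P2rx7, 1.41 and 0), Mir6992 (in the syntaxin gene Stx5a, 0 and 0.63) and Gm27943 (in Glb1l, 0.65 and 0).

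**Figure D3:**
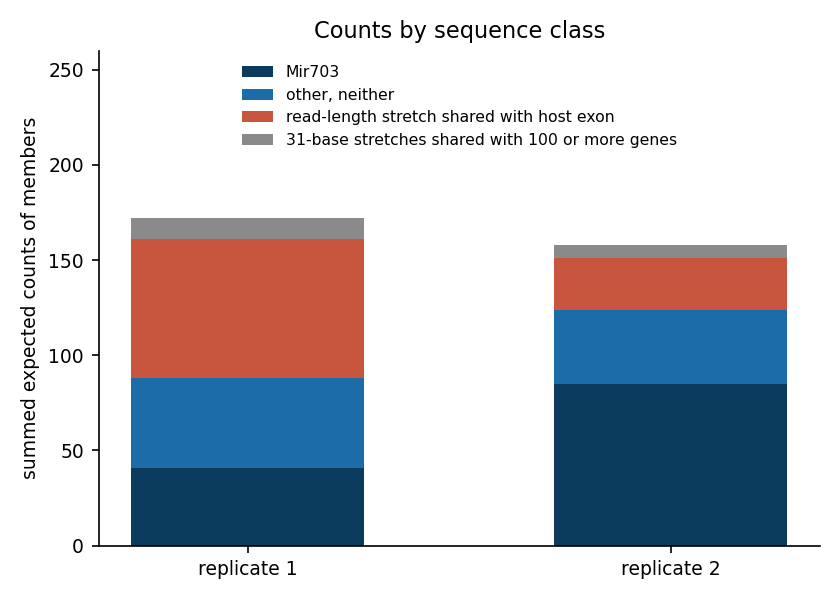
Summed expected counts of the members (y axis) in each library (x axis), stacked by Mir703, the other 33 members with neither kind of sharing, the 10 that share a read-length stretch with a host exon, and the 14 with 31-base stretches in 100 or more other genes. Host-exon members make up 73.17 counts in replicate 1 and 26.99 in replicate 2, and Mir703 makes up 41 and 85.

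The 33 members of the remaining sequence other than Mir703 had 47 counts in replicate 1 and 39 in replicate 2, all of them whole numbers. Whole counts do not mean unshared sequence: Gm24761 has 15 of its 27 read-length stretches in another miRNA gene. Among the 33 were 3 members between Dlk1 and Dio3 on chromosome 12, a region whose noncoding RNAs and microRNAs are expressed from the maternal chromosome. Their precursor hairpins, from RefSeq (GRCm38.p6, plus strand), are shown with the mature arms in capitals, at chr12:109611822-109611941 for Mir1188, chr12:109591715-109591838 for Mir433 and chr12:109712317-109712436 for Mir1197.
Mir1188: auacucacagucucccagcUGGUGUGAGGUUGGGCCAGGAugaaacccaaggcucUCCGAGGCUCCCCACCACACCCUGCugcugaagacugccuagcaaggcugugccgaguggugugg
Mir433: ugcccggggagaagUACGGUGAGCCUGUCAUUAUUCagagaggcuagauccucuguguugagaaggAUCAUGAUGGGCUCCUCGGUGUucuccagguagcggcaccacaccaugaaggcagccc
Mir1197: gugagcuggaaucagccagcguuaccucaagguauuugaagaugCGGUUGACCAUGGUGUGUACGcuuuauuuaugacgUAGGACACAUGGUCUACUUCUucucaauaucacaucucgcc
Mir1188 lies in an intron of Rian, a maternally expressed long noncoding RNA, and had 7 and 2 counts (24.82 and 5.26 TPM, 15.04 ± 13.83, SD), with Rian at 616.43 and 474.33 TPM. Mir433 lies antisense to Rtl1, a paternally expressed gene of retrotransposon origin, and had 3 and 6 counts (8.86 and 13.14 TPM), while Rtl1 was at 0 and 0.03 TPM. Mir1197 lies in no annotated gene and had 2 and 0 counts (7.09 and 0 TPM). The ratio of replicate 2 to replicate 1 had an interval of 0.023 to 1.19 for Mir1188 and 0.339 to 9.8 for Mir433, and neither excludes equal levels.

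The region holds 67 annotated miRNA genes of 49 to 124 bases, of which 8 exceed 100 bases. The 3 members were the ones with any count, 12 in replicate 1 and 8 in replicate 2, and the hairpins of 100 bases or less could not be counted. The long noncoding RNAs of the region were abundant. Meg3 stood at 1791.72 and 973.29 TPM, Rian at the values above and Mirg, which carries many of the hairpins, at 76.09 and 45.73 TPM. Only 22 of the 67 lie within an annotated gene on their own strand.

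Other members lay in introns of protein-coding and noncoding hosts. Gm22650, the hairpin of miR-3552, lies in an intron of the serotonin receptor gene Htr2c on chromosome X and had 0 and 3 counts (0 and 31.54 TPM), with Htr2c at 12.59 and 19.3 TPM. A count of 0 in replicate 1 allows up to 42.55 TPM for Gm22650. The choroid plexus, which secretes cerebrospinal fluid, is known to express Htr2c, and its markers moved the same way. All 9 listed markers were 2-fold or more higher in replicate 2, with 0.21 to 8.68 TPM in replicate 1 and 3.5 to 1702.74 in replicate 2, and summed levels of 17.86 and 1791.53 TPM. Its defining marker Ttr (transthyretin) was at 8.68 and 1702.74 TPM. The part of this tissue in the counts of Gm22650 was not tested, and in bulk RNA fewer cells of a type and less RNA per cell cannot be told apart. Mir204, whose host Trpm3 is also active in that tissue, is 68 bases long and could not be counted, with Trpm3 at 31.07 and 45 TPM.

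Gm24155 lies in an intron of the noncoding gene Gm26871, which also carries Mir137, and had 2 and 4 counts (14.18 and 21.03 TPM, 17.61 ± 4.84, SD). Mir137 is 73 bases long and had no effective length, while Gm26871 was at 22.83 and 16.06 TPM. Gm27353, in an intron of Ccpg1, a receptor for autophagy of the endoplasmic reticulum, had 1 and 3 counts (3.22 and 7.17 TPM). Gm24273, the longest member at 164 bases, in an intron of Srgap2, a regulator of dendritic spines, had 4 and 0 counts, a mean of 2.21 TPM. Mir6391, in an intron of the transporter gene Abcc4, had 0 and 1 count and still 13.14 TPM in replicate 2. Sfmbt2, a Polycomb-group gene whose intron is known for a cluster of related hairpins, held Gm24761 (2 and 0 counts) and Mir669e (1 and 0 counts), with Sfmbt2 at 2.29 and 1.57 TPM.

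The remaining 11 intronic members of this sequence class had 2 counts or fewer in all, and these names were taken from the whole list rather than by the rule for named genes. With 2 counts in 1 library were Mir8100 (host Adam19), Mir8095 (host Dgkg, a diacylglycerol kinase), Gm24195, the hairpin of miR-1271 (host Arl10), and Mir8106 (host Ano10). With 1 count were Mir3473e (Rbks), Gm27711 (Tom1l2), Mir1192 (the transcription factor gene Klf9), Mir8118 (Rngtt, the mRNA capping enzyme), Mir6336 (Lrp1b, a lipoprotein receptor), Gm27833 (Brwd1) and Gm44324 (Unc79, of the sodium leak channel complex). A read from the unspliced host and a read from the hairpin itself cannot be told apart in these tables.

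Of the 4 members that overlap a host exon without sharing a read-length stretch with a host transcript, Mir6418, overlapping a coding exon of the G protein subunit gene Gnb2, had 6 and 1 counts (28.37 and 3.5 TPM, 15.94 ± 17.59, SD), with Gnb2 at 281.33 and 269.17 TPM. Mir3062, at Pfas, an enzyme of purine synthesis, had 3 and 0 counts (42.55 and 0 TPM). Mir8094, at the helicase gene Ddx39b, had 0 and 2 counts. Mir124a-2 was the only member from the list labelled neuronal, and had 0 and 1 count (0 and 5.84 TPM).

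Antisense to a gene or outside any gene, the members of the same class other than Mir703, Mir433 and Mir1197 had 5 counts or fewer over both libraries. Gm25262 (antisense to Gm12473) and Mir8091 (outside any gene) each had 2 and 3 counts, at 4.3 and 4.78 TPM for Gm25262 and at 3.64 and 4.04 TPM for Mir8091. The ratio of replicate 2 to replicate 1 was 1.19 for both, with an interval of 0.136 to 14.2. Gm44346, antisense to the histone gene Hist1h2an, had 2 and 0 counts. Gm27320 (antisense to Elmo3), Mir8109 (antisense to Neto2), Gm44333 and Mir1946b each had 1 count, in replicate 1. Mir7j, the hairpin of let-7j, lies outside any gene and had 0 and 1 count (0 and 2.39 TPM).

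The 14 members with widely shared sequence are 124 to 126 bases long and held 11 counts in replicate 1 and 6.99 in replicate 2. They were chosen for 31-base stretches found in 100 or more other genes, and these occurred in 971 to 2290, on either strand. The class made up 24.1% of the 58 members, near its share of the 806 miRNA genes longer than 100 bases (188, or 23.3%). They had 11 distinct sequences: Gm22625, Gm22907 and Gm26268 were identical to each other, as were Gm27592 and Gm27743. Gm22625, Gm22907 and Gm26268 each had 1 count in replicate 1 and 0.33 in replicate 2. Gm22639, in an intron of Zcchc7, had the most, 2 counts in each library (5.67 and 4.21 TPM). Gm22460, Gm23413, Gm25640, Gm23158, Gm24303 and Gm44310 had 1 count in replicate 1 alone, and Gm24979, Gm27592, Gm27634 and Gm27743 had 1 count in replicate 2 alone. These last 4, all of 126 bases, were the members just inside the threshold, each at 1.01 TPM. Just outside it were Gm47297 at 0.98 TPM, from 1.42 counts in replicate 2, and then Gm24755, Gm27466, Gm27785 and Gm28018, each at 0.885 TPM from 0.25 counts in replicate 1.

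Over all 58 members, 37 (63.8%) lay inside another gene on the same strand, 14 of them overlapping its exons and 23 in its introns. A further 10 were antisense to a gene and 11 outside any. Among the other 748 miRNA genes over 100 bases, 267 (35.7%) lay inside a gene on the same strand. The hosts of the members were mostly protein-coding (34 of 37), and 29 of 37 had a mean TPM of 10 or more, with a median of 33.9 TPM, against 105 of 267 and a median of 3.53 TPM for the hosts of the other genes. Read by host level, none of the 16 exonic and none of the 49 intronic genes with a host under 1 TPM was a member. With a host of 1 to 10 TPM, 3 of 18 exonic and 5 of 87 intronic genes were members. With a host of 10 TPM or more, these were 11 of 43 (25.6%) and 18 of 91 (19.8%). Outside any gene it was 11 of 330 (3.33%). These shares have no test, since membership was set by the counts themselves. For 10 of the 14 exonic members, reads of a shared stretch were divided between hairpin and host. Their counts are therefore not independent of the host level.

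**Figure D4:**
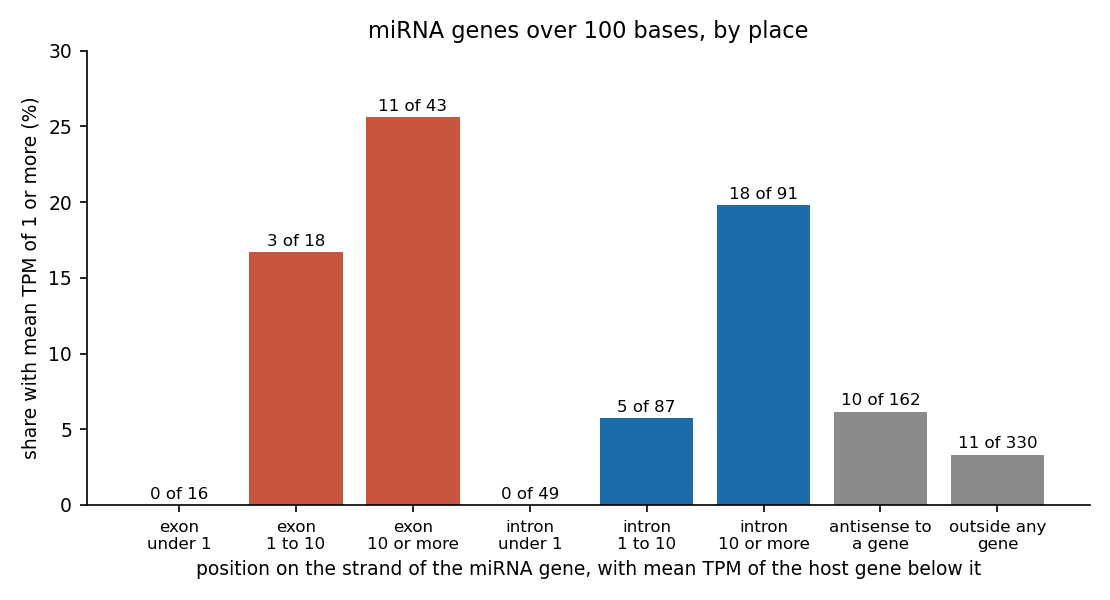
Share of miRNA genes over 100 bases that had a mean TPM of 1 or more (y axis, percent, from 0), by where they lie relative to a gene on the same strand and by the mean TPM of that host (x axis), with the numbers above the bars. The share is 0 for hosts under 1 TPM and highest for hosts of 10 TPM or more, at 25.6% in exons and 19.8% in introns.

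A fixed list of 44 hairpins, labelled neuronal, was set beside the members, and the label was not tested for single hairpins. Of these 44, 4 are over 100 bases and 1, Mir124a-2, had a count. Mir219a-1, of 110 bases, had 0 counts in both libraries, and Gm26940, which overlaps part of it, was at 0 TPM in both. Mir218-1 and Mir218-2, of 110 bases in introns of the guidance genes Slit2 and Slit3, had 0 counts in both libraries. Their hosts were at 22.72 and 17.67 TPM (Slit2) and 52.76 and 33.19 TPM (Slit3). At their effective length of 10, a count of 0 allows up to 21.27 TPM in replicate 1 and 15.77 TPM in replicate 2. Some host genes were measured where the hairpin was not. Mir124a-1hg stood at 165.82 and 84.41 TPM although Mir124a-1, at 85 bases, had no effective length. Mir124-2hg, the host of Mir124a-2, was at 19.5 and 17.61 TPM. Arpp21, which holds Mir128-2 in an intron, was at 148.28 and 116.62 TPM. Some hosts on the list were low, such as Nanos3 (Mir181c) at 1.6 and 0.62 TPM and 1700016P03Rik (Mir132) at 3.07 and 0.83 TPM. The sequence of Mir124a-2 (GENCODE M21, mm10) is given with capitals for the 63 of its 109 bases that lie in 31-base stretches shared with Mir124a-1, because both genes give miR-124 and the longer one alone could be counted.
Mir124a-2: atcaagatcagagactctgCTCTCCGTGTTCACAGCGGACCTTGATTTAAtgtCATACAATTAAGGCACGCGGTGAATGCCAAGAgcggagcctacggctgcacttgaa

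All 12 let-7 family genes of the list lie inside a gene on their own strand, and none had a count. Of the 12, 2 exceed 100 bases (Mirlet7d and Mir98). They offer 3 and 8 read positions, so a count of 0 leaves a wide range of TPM open. Mir98 lies in an intron of the ubiquitin ligase gene Huwe1, which was at 145.64 and 128.04 TPM. Of the 22 annotated hairpins on a list for other cell types, 3 exceed 100 bases (Mir133a-2, Mir211 and Mir223) and none had a count. For blood and microglia, Mir142hg had 0 and 0.31 TPM, from 0 and 1 counts, and Mir155hg had 0 counts in both libraries. A second deposited quantification of the same reads gave Mir155hg 0.159 and 0.0787 TPM and Mir142hg 0 in both. Markers of both cell types were present. The 3 listed for blood were at 93.95 to 172.29 TPM over the libraries, and the 3 for microglia at 10.28 to 25.94 TPM. Host levels differed within the list for other cell types too. Egfl7, the host of Mir126a, was at 36.02 and 33.04 TPM, and Vmp1, the host of Mir21a, was at 61.41 and 58.06 TPM.

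**Figure D5:**
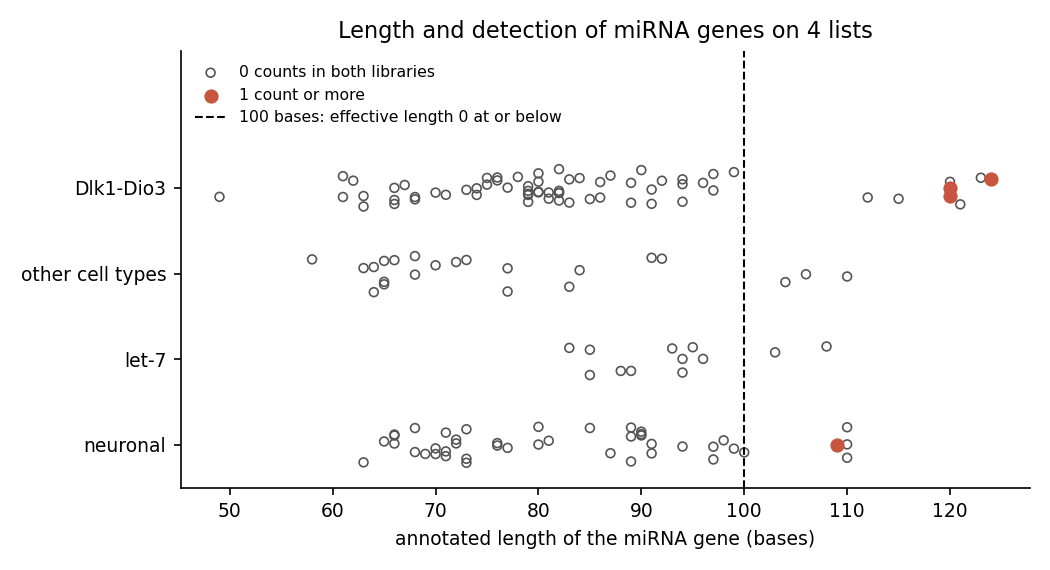
Annotated length in bases (x axis) of every miRNA gene on 4 lists (rows; points are spread vertically for legibility), open where both libraries have 0 counts and filled where there is 1 count or more. Most listed hairpins lie at or left of the dashed line at 100 bases, where the effective length is 0, and 4 filled points lie to its right: Mir124a-2 and the 3 members of the Dlk1-Dio3 region.

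The processing genes of the pathway are long messenger RNAs and do not share these limits. Of 29 listed, 27 were at 1 TPM or more in both libraries. None was 2-fold apart between them, beside 6.45% of all 15760 genes compared. The 29 include Lin28a and Lin28b, which lie below the mean TPM of 1 that the comparison of all genes required. Drosha was at 43.16 and 38.67 TPM and Dgcr8 at 32.01 and 17.2 TPM. Xpo5 was at 26.67 and 21.92 TPM and Dicer1 at 20.39 and 18.8 TPM. Among the Argonaute genes Ago2 was highest at 42.04 and 35.63 TPM, followed by Ago1 at 31.09 and 28.22, Ago3 at 21.9 and 16.83 and Ago4 at 5.69 and 3.01. Lin28a, a blocker of let-7 processing in embryonic cells, had 0 counts in both libraries, and Lin28b was at 1.28 and 0.7 TPM.

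Between the libraries, 5 members had the 10 counts over both that the comparison required, and 3 of them were 2-fold or more apart, all lower in replicate 2. Over all 15760 genes that met the same conditions, 6.45% were 2-fold or more apart and 5.1% were that much lower in replicate 2. The 3 were the host-exon members Gm25749, Gm47315 and Gm47312, for which RefSeq held no entry by symbol. The ratio of replicate 2 to replicate 1 was 0.238 for Gm25749 (interval 0.071 to 0.708) and 0.124 for Gm47315 (0.0347 to 0.404). For Gm47312 it was 0, with an interval of 0 to 0.221. A floor of 3 counts in replicate 2 puts Gm47312 6.27-fold lower, a value that leaves out counting error in replicate 1. The deposited interval bounds of TPM overlapped between the libraries for Gm25749 and Gm47312, and did not for Gm47315. The median log2 ratio of the 5 was -1.97, against -0.02 over all genes. Membership rested on the mean of the same values, which a gene high in 1 library could pass, so nothing further is read from these counts. Across the 58 members, log2(TPM + 1) had a Pearson correlation of 0.21 and a Spearman correlation of -0.05 between the libraries; genes are not independent replicates, and most of these values are 0 in 1 library.

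The second deposited quantification of the same reads gave 0 estimated counts to all 2202 miRNA genes, Mir703 among them. It gave none to the 2505 transcripts of 100 bases or less nor to the 3619 of over 100 and up to 150 bases. Of 1123 transcripts over 150 and up to 200 bases, 13 had an estimated count, against 3466 of 8801 over 300 and up to 400 bases. The levels of all 58 members therefore rest on 1 of the 2 quantifications. In the first, other short genes passed the same threshold too. Among genes of 101 to 164 bases, 58 of 797 miRNA genes (7.28%) had a mean TPM of 1 or more, beside 89 of 1005 snoRNA genes (8.86%), which guide RNA modification, 35 of 1079 snRNA genes (3.24%), which serve in splicing, and 15 of 84 misc_RNA genes (17.9%). Over all types other than miRNA it was 188 of 3010 (6.25%). Markers of the labelled tissue were present: all 9 listed markers of hippocampal neurons were between 24.39 and 630.91 TPM in both libraries, and the liver marker Alb was at 0.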

How the data were processed

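Hippocampal total RNA of 2 mice was measured in 1 library from each. The animals have different numbers under 1 shared donor entry, per the labels (replicate 1 is animal 2, replicate 2 is animal 4). Reads were assigned on mm10 with GENCODE M21, per the notes deposited with each library, with program names not given in the sources used here. In the authors' gene table, expected counts estimate the reads of each gene, shared reads being divided among genes, without scaling. The deposited TPM values have a common total. The first tables were made from transcriptome alignments and the second from the read files, per the same notes. The deposited bounds of TPM were read as a score with no fixed range and are not printed. The second deposited table holds estimated counts and TPM per transcript, summed per gene here.

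Each level is a mean TPM with its SD over both libraries. Log2 ratios are of counts plus 0.5 per total on annotated genes, for genes with mean TPM of 1 or more and 10 or more counts over both, and called means 2-fold or more. Intervals are 95%, Clopper-Pearson for ratios of counts rounded to whole numbers and Wilson for shares. With 1 group no p-value is given. Hosts came from the GENCODE M21 annotation, and a host spans the whole miRNA gene on the same strand. Where several genes did, one with an exon over the hairpin was preferred, and then the one with the highest mean TPM. Shared sequence was searched in GENCODE M21 transcripts with stretches of 101 and 31 bases. Python 3.11.15, pandas 2.3.3, numpy 2.4.6, scipy 1.17.1, biopython 1.88, matplotlib 3.10.9 and, for TMM, edgeR 4.0.16 in R 4.3.3 were used, and the window search and intervals were tested on simulated data.

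Named genes were the 15 members highest in TPM, the 10 highest in counts, the 5 highest and lowest ratios among those with 10 or more counts, the 3 on either side of the threshold with ties, and members on a list; others are named to account for every member. The members and lists were chosen with earlier results of these data known.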

Additional observations from a re-analysis of the deposited data

How the results depend on the processing

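The number of miRNA genes detected followed the threshold: 58 became 30 at a mean TPM of 2 or more, 13 with TPM of 1 or more in each library, 17 with annotated in place of effective length, 5 with 10 or more counts required as well, and 0 by the second quantification. Leaving out 1 library at a time gave 36 to 48. The 1 member with 10 counts in each library became 2 at a minimum of 5, 0 by the second quantification and 2 to 4 when 1 library was left out. The members 2-fold or more apart, 3 of 5 against 6.45% of all genes, became 48 of 58 against 7.58% with no count minimum and 0 of 1 against 4.96% at a minimum of 40 counts. With no minimum, 1 count against 0 is past 2-fold by itself, at a log2 ratio of -1.92 or 1.25. That outcome was fixed in advance for the 25 members with exactly 1 count in all, so the 48 are not read against 7.58%. Under TMM, ERCC and a larger prior count, the members 2-fold or more apart stayed 3 of 5. By the second quantification this was 0 of 0, since no member has a value there. The 37 members inside a gene on the same strand were 24 to 26 with 1 library left out. The Pearson correlation of 0.21 was -0.12 with a pseudocount of 0.1 and 0.87 over the 5 members with 10 or more counts; the cause was not tested. Of the 58 members, 41 had counts in 1 library alone. No paired analysis was possible because there is 1 group.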
